A study of Mus musculus with 12 samples.

Results

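HSP90 is an ATP-driven chaperone that holds already part-folded client proteins, among them many kinases and the steroid receptors, until they are mature. Its cycle is run by co-chaperones: adaptors bring clients in, other partners speed up or slow down ATP hydrolysis, and immunophilins sit on the complexes that carry steroid receptors. In neurons the same machinery handles kinases of signaling pathways and tau. Transcripts of 10 genes of this system were followed here, out of 27179 genes counted: the cytosolic chaperones *Hsp90aa1* and *Hsp90ab1*, the adaptors *Stip1* and *Cdc37*, the ATPase regulators *Ahsa1*, *Ahsa2* and *Ptges3*, and the immunophilins *Fkbp4*, *Fkbp5* and *Ppid*. They were chosen by name, with earlier results of these data known, and each was found by its Entrez number.

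The RNA came from primary hippocampal neurons of newborn mice, labelled C57BL/6 (the study's methods name FVB mice as well, for its cultures in general), grown for 17 to 18 days in vitro on porous membranes that let neurites pass while cell bodies stay on top. Control cultures (Ctrl) received the solvent DMSO, and stressed cultures received 10 µM of the proteasome inhibitor MG132 for 7 h. Somas and neurites of both were collected apart, which gave 4 groups of 3 libraries: Ctrl somas, MG132 somas, Ctrl neurites and MG132 neurites. Nothing in the labels states that the 3 libraries of a group came from separate animals, so the p-values measure only the spread between these libraries.

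The libraries held 4247610 to 22166347 counts, and all 10 members passed the filter on low counts. The cultures were not purely neuronal. The 6 neuronal markers summed to 700.8 to 1597 CPM (counts scaled to a common library size) across the 12 libraries, and none of them was called in any comparison. Of the 7 astrocyte markers, 4 were called lower with MG132 in somas and 2 in neurites, and their sum was 4678 to 5821 CPM in Ctrl somas against 20477 to 25640 in Ctrl neurites. In neurites that sum was mostly *Gfap*, at 1967 ± 520 CPM in Ctrl somas and 17794 ± 3308 in Ctrl neurites (SD, n = 3). By gene, 2 of the 7 were called higher and 1 (*Gja1*, at -1.09 ± 0.23 on the log2 scale, SE) lower in Ctrl neurites against somas, with a median log2 difference of 0.08. Of the 6 microglial markers, 3 were called lower with MG132 in somas and 4 in neurites, from 504.6 to 619.0 CPM in Ctrl somas to 124.2 to 216.9 in MG132 somas. Both markers of oligodendrocyte precursors were called lower in neurites and 1 in somas, while no marker of oligodendrocytes (4) or dividing cells (2) was called with MG132. Of 2 endothelial markers, *Cldn5* was at 0 in 3 of the 4 groups and *Pecam1* had group means of 0.13 to 1.11 CPM. Neither passed the filter for testing. In such bulk samples, fewer cells of a type and less RNA per cell cannot be told apart.

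Both HSP90 genes rose with MG132 in both fractions. The main edgeR fit left out the pairing of same-numbered libraries, which an alternative fit with a replicate block took in. A member is said to be called when the main fit's adjusted p, taken over 14185 tested genes, was under 0.01 and the change exceeded 1.7-fold. By that rule 7 of the 10 were called higher in somas, where 9.00% of all tested genes were called higher and 5.58% lower. In neurites 6 were called higher, against 9.25% of all tested genes higher and 5.44% lower. No member was called lower in either fraction by edgeR or by DESeq2. In the main edgeR fit none had an unadjusted p under 0.05 on the lower side. Over the 10 members, the median log2 change in somas was 1.27 and that in neurites 1.56, beside -0.07 and -0.16 for all tested genes. Because the members were chosen with earlier results of these data known, neither the counts nor these medians are separate evidence. Scaled to total counts without TMM factors, 3 members were called in somas (*Hsp90aa1*, *Hsp90ab1* and *Stip1*) and 5 in neurites, where the share of calls on the higher side went from 63.0% to 47.2%.

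*Hsp90aa1* (Entrez 15519, chr12:110691036-110696395 on the GRCm38 build) encodes HSP90 alpha, the stress-inducible cytosolic form. It was counted at 149, 146 and 165 CPM in Ctrl somas and at 664, 727 and 944 CPM in MG132 somas. In neurites it went from 151, 224 and 202 CPM in Ctrl to 984, 1095 and 1278 CPM in MG132. The lowest treated library was thus far above the highest control in both fractions. It rose by 2.34 ± 0.20 on the log2 scale (SE, edgeR adjusted p = 2.91e-06) in somas and by 2.54 ± 0.20 (edgeR adjusted p = 1.22e-06) in neurites, which placed the gene at rank 181 and rank 187 of all tested genes. On its transcript, 53.1% of the 75-base windows also occur in other annotated genes (*Gm12346*, *Gm5844* and *Gm5511*), so its counts depend on how shared reads were treated.

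*Hsp90ab1* (Entrez 15516, chr17:45567778-45573261) encodes HSP90 beta, the form made constitutively, and only 0.736% of its windows are shared with another gene. Its level was 705, 594 and 677 CPM in Ctrl somas and 1699, 1681 and 2220 CPM in MG132 somas. Ctrl neurites held 796, 837 and 1179 CPM and MG132 neurites 2942, 3237 and 3709 CPM. Here, too, no treated library overlapped a control. The gene rose by 1.50 ± 0.21 on the log2 scale in somas (SE, edgeR adjusted p = 1.26e-04) and by 1.81 ± 0.21 in neurites (edgeR adjusted p = 2.56e-05).

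**Figure D1:**
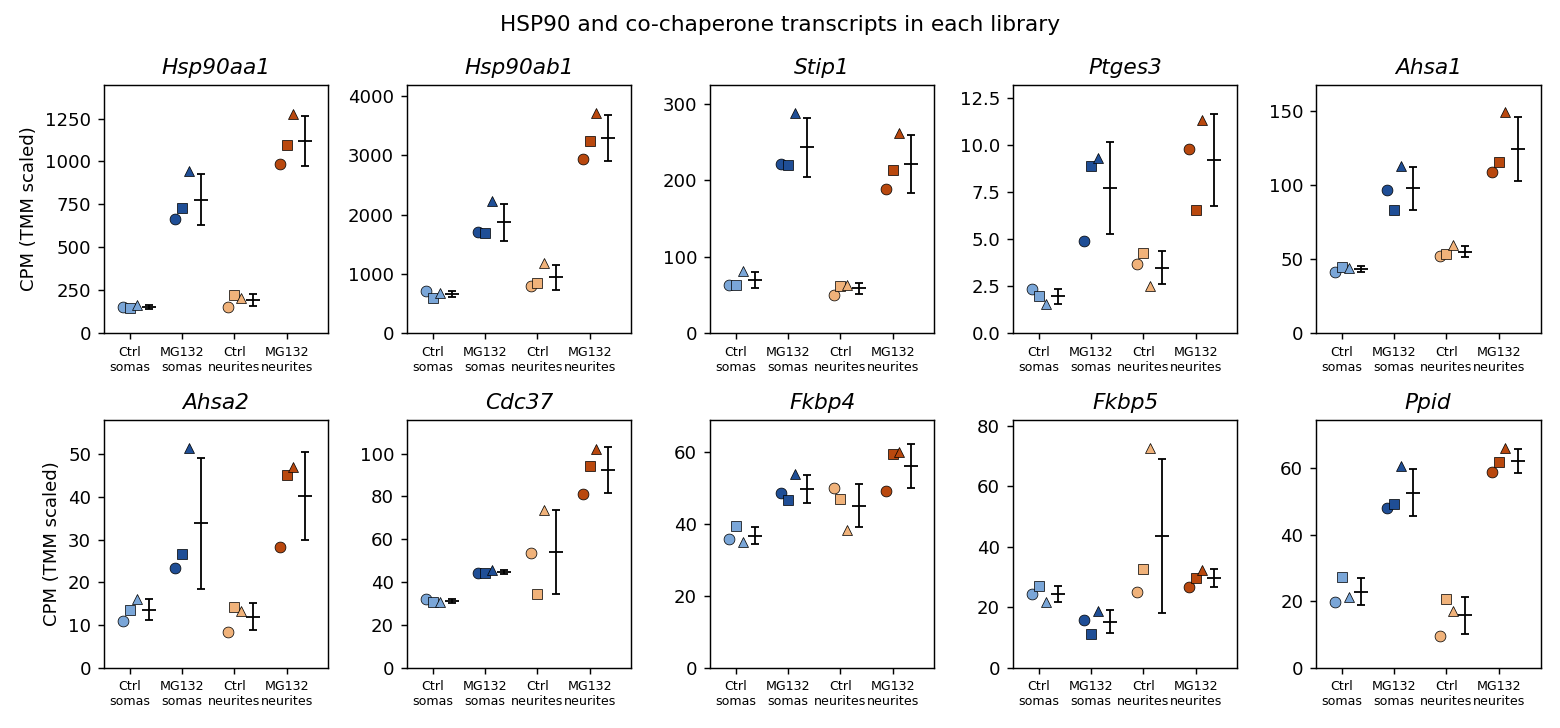
CPM of each of the 10 members (vertical axes, linear and starting at 0, TMM scaled) in the 12 libraries, by group; circles, squares and triangles are replicates 1, 2 and 3, and the bar beside each group is the mean with its SD (n = 3). The 3 MG132 libraries lie above the 3 Ctrl libraries for 9 members in somas and 8 in neurites. That order was found for 23.2% of all tested genes in somas and 20.4% in neurites. *Fkbp5* lies below in somas, an order that was not counted over all tested genes. Replicate 3 of Ctrl neurites stands at 72.7 CPM for *Fkbp5*.

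The adaptor *Stip1* (Entrez 20867, chr19:7020696-7040026), which passes clients from HSP70 to HSP90, rose by similar amounts in all replicates. It stood at 63.1, 62.9 and 81.9 CPM in Ctrl somas and at 243.1 ± 38.9 CPM (SD, n = 3, the lowest 220.5) in MG132 somas, and at 50.0, 62.0 and 63.4 CPM in Ctrl neurites and 188, 213 and 262 CPM in MG132 neurites. Compared within replicate numbers, the log2 difference in somas was 1.80, 1.80 and 1.81. The fit gave a log2 change of 1.81 ± 0.19 in somas (SE, edgeR adjusted p = 1.76e-05) and of 1.92 ± 0.19 in neurites (edgeR adjusted p = 9.02e-06). Of its windows, 4.42% are shared, with *Cfap20*.

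*Cdc37* (Entrez 12539, chr9:21139431-21149934), the adaptor for kinase clients, moved less. All 3 MG132 somas libraries were at 44.2 to 45.8 CPM and all 3 Ctrl somas libraries at 30.7 to 32.1 CPM, a log2 difference of 0.52 ± 0.23 (SE) that was not called (edgeR adjusted p = 0.10). With the replicate block the somas difference was 0.51 ± 0.19 (SE, edgeR adjusted p = 0.0409), also not called. In neurites Ctrl libraries held 53.7, 34.4 and 73.8 CPM and MG132 libraries 81.0, 94.2 and 102 CPM. The groups did not overlap, and the log2 difference of 0.78 ± 0.23 was not called (edgeR adjusted p = 0.0183). It was called with the replicate block, at 0.82 ± 0.19 (edgeR adjusted p = 0.0019), with no filter on low counts, at 0.92 ± 0.23 (edgeR adjusted p = 0.00219), and without the third Ctrl neurites library, at 1.20 ± 0.21 (edgeR adjusted p = 0.00103).

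The ATPase regulators rose unevenly. *Ahsa1* (Entrez 217737, chr12:87266415-87273998), which stimulates the ATPase of HSP90, went from 41.1 to 44.7 CPM in Ctrl somas to 83.5 to 113 CPM in MG132 somas. In neurites it went from 51.9 to 59.4 CPM to 109 to 150 CPM. The log2 fold change was 1.18 ± 0.17 in both fractions (SE, edgeR adjusted p = 2.19e-04 in somas and 1.82e-04 in neurites), and 11.7% of its windows are shared with *Gm49207*. Its paralog *Ahsa2* (Entrez 268390, chr11:23487882-23498045) was at 11.1, 13.6 and 16.0 CPM in Ctrl somas and 23.4, 26.6 and 51.5 CPM in MG132 somas, the third treated library being well above the other two. It rose by 1.33 ± 0.32 on the log2 scale in somas (SE, edgeR adjusted p = 0.00672) and by 1.73 ± 0.33 in neurites (edgeR adjusted p = 0.00131). The somas call was lost without any of the 3 Ctrl libraries (edgeR adjusted p = 0.0285, 0.0187 and 0.0105) and without the third MG132 library, where the log2 fold change was 0.89 ± 0.30 (edgeR adjusted p = 0.0493). The replicate block kept the somas call, at 1.28 ± 0.23 (SE, edgeR adjusted p = 1.21e-04). Of the *Ahsa2* transcript bases, 63.5% overlap other genes, mostly *Usp34* on the opposite strand. The default counting that was used ignores strand, so reads of these bases cannot be assigned to 1 gene. Whether such reads were counted for *Ahsa2* or left out was not tested.

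*Ptges3* (Entrez 56351, chr10:128058982-128077254) encodes p23, which stabilizes the closed, ATP-bound chaperone. It was the most thinly counted member, with 14 to 34 counts per library in Ctrl somas and 45 to 228 in MG132 somas, and 21.2% of its windows occur in *Ptges3-ps* or *Gm11893*. The counts correspond to 2.35, 2.0 and 1.54 CPM in Ctrl somas and 4.90, 8.92 and 9.35 CPM in MG132 somas, a log2 fold change of 1.96 ± 0.43 (SE, edgeR adjusted p = 0.00388). Of 6 fits with 1 library removed, 5 lost this call. They left out the first, the second or the third Ctrl library (edgeR adjusted p = 0.0117, 0.0148 and 0.0185) or the second or the third MG132 library (0.0111 and 0.0209, edgeR). The replicate block kept the call, at 1.95 ± 0.485 (SE, edgeR adjusted p = 0.00293). In neurites the 3 MG132 libraries held 9.81, 6.56 and 11.4 CPM and the 3 Ctrl libraries 3.70, 4.25 and 2.52 CPM, a log2 difference of 1.38 ± 0.43 that was not called (edgeR adjusted p = 0.0269).

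The 3 immunophilins differed from each other. *Ppid* (Entrez 67738, chr3:79591337-79603810), also named cyclophilin 40, went from 19.8, 27.4 and 21.4 CPM in Ctrl somas to 48.0, 49.2 and 60.7 CPM in MG132 somas, and from 9.53, 20.7 and 17.0 CPM in Ctrl neurites to 58.9, 61.8 and 66.1 CPM in MG132 neurites. Its log2 change in somas was 1.21 ± 0.24 (SE, edgeR adjusted p = 0.00213) and that in neurites 1.96 ± 0.25 (edgeR adjusted p = 6.09e-05). The somas call was lost without the first Ctrl library (1.12 ± 0.28, edgeR adjusted p = 0.0116) and without the third MG132 library (1.10 ± 0.27, edgeR adjusted p = 0.011). Of its windows, 17.2% are shared with 6 other genes.

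*Fkbp4* (Entrez 14228, chr6:128430103-128438656) encodes FKBP52, an immunophilin that favors steroid receptor activity. It stood at 35.9, 39.5 and 34.9 CPM in Ctrl somas and 48.7, 46.6 and 54.0 CPM in MG132 somas, without overlap. Its log2 difference of 0.44 ± 0.17 (SE) was not called (edgeR adjusted p = 0.0746). With the replicate block it was 0.44 ± 0.17 (edgeR adjusted p = 0.0485), also not called. In neurites the groups overlapped, at 38.3 to 50.0 CPM in Ctrl and 49.1 to 60.0 CPM in MG132 (0.32 ± 0.18 on the log2 scale, edgeR adjusted p = 0.196). *Fkbp5* (Entrez 14229, chr17:28398753-28486149) encodes FKBP51, which holds the glucocorticoid receptor in a state of low hormone affinity. It was the only member with a negative log2 difference in somas (-0.66 ± 0.33, edgeR adjusted p = 0.15). Ctrl libraries there held 24.4, 27.1 and 21.6 CPM and MG132 libraries 15.9, 11.1 and 18.7 CPM. With the replicate block the somas difference was -0.71 ± 0.27 (SE, edgeR adjusted p = 0.0411), which was not called either. In neurites 2 Ctrl libraries were at 25.1 and 32.8 CPM and the third at 72.7 CPM, while the MG132 libraries lay between 26.7 and 32.5 CPM. The log2 difference there was -0.55 ± 0.33 (edgeR adjusted p = 0.225), and it was 0.15 ± 0.26 without the third Ctrl library (edgeR adjusted p = 0.721). No read window of *Cdc37*, *Fkbp4* or *Fkbp5* is shared with another gene.

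Counted without a model, the 3 MG132 libraries lay above the 3 Ctrl libraries for 9 members in somas, where 23.2% of all tested genes had that order, and for 8 members in neurites, where 20.4% had it.

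**Figure D2:**
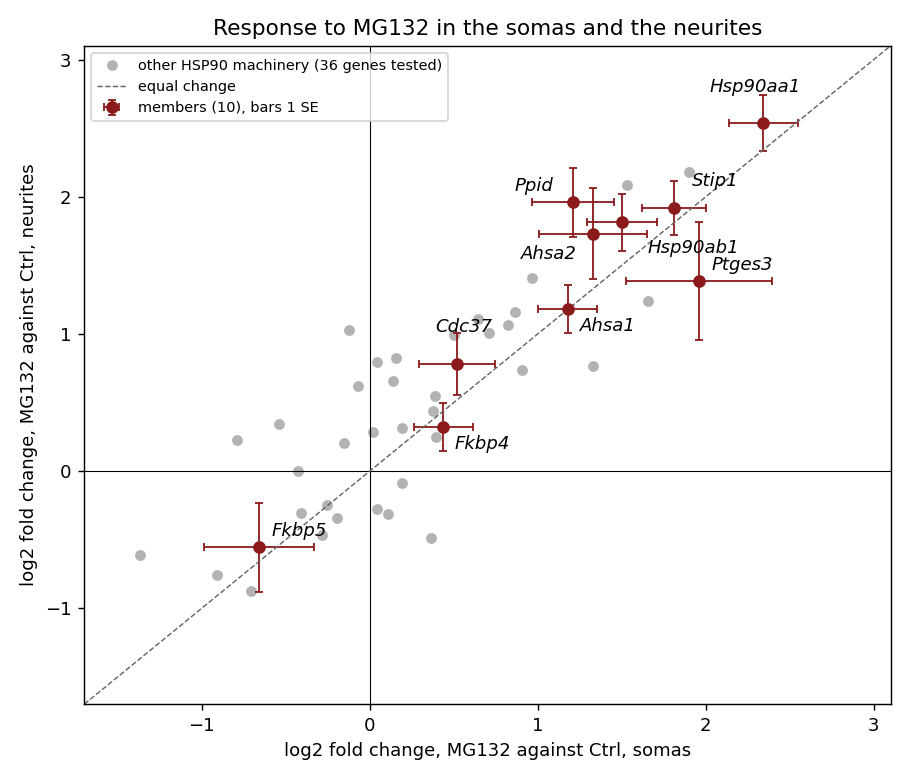
Log2 fold change of MG132 against Ctrl in somas (horizontal axis) and neurites (vertical axis) for the 10 members in red, with bars of 1 SE, and for the 36 tested genes of the wider HSP90 machinery in grey; the dashed line marks an equal change. *Hsp90aa1* lies at 2.34 and 2.54, *Ppid* at 1.21 and 1.96, and *Fkbp5* at -0.66 and -0.55.

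The next question was whether the response differed between the fractions. The difference of the log2 fold changes, neurites minus somas, was tested for each gene by edgeR (adjusted p under 0.01, with no fold threshold). No member passed in either direction, and of all tested genes 0% were called higher and 0% lower, although 474 had a larger and 526 a smaller change in neurites at an unadjusted p under 0.05. DESeq2 called 19 and 6 genes and edgeR with the replicate block 14 and 7, no member among them. *Ppid* was the member with the largest difference, 0.75 ± 0.35 (SE, 95% interval 0.02 to 1.49, unadjusted p = 0.0457, edgeR adjusted p = 0.704). Its Ctrl neurites libraries, at 9.53 to 20.7 CPM, were lower on average than its Ctrl somas libraries, whereas MG132 neurites and MG132 somas held 62.2 ± 3.62 and 52.6 ± 7.03 CPM (SD, n = 3). For *Hsp90aa1* the difference was 0.20 with a 95% interval of -0.39 to 0.78, for *Hsp90ab1* 0.31 with an interval of -0.30 to 0.92, and for *Stip1* 0.11 with an interval of -0.46 to 0.67. *Ptges3*, called in somas only, had a difference of -0.58 with an interval of -1.85 to 0.70, so a difference between the fractions was not shown.

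Transcripts of the members were then compared between the 2 fractions. In Ctrl cultures no member was called by edgeR or by DESeq2, against 6.15% of all tested genes higher in neurites and 1.28% lower, and 3 had an unadjusted p under 0.05 on the higher side, namely *Hsp90ab1*, *Cdc37* and *Fkbp5*. In MG132 cultures *Cdc37* was called higher in neurites, against 6.92% of all tested genes higher and 2.08% lower. Its log2 difference was 1.05 ± 0.23 (SE, edgeR adjusted p = 0.0047), from 44.7 ± 0.91 CPM in somas to 92.5 ± 10.7 CPM in neurites (SD, n = 3), and in Ctrl cultures it was 0.79 ± 0.23 (edgeR adjusted p = 0.0285). The MG132 call was lost without any one of the 3 MG132 somas libraries (edgeR adjusted p = 0.0145, 0.0186 and 0.0119) and without the second or the third MG132 neurites library (0.0187 and 0.0154, edgeR), while the Ctrl difference was called without the second Ctrl neurites library (1.04 ± 0.19, edgeR adjusted p = 0.00252).

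*Hsp90ab1* was just outside the call in MG132 cultures, with a log2 difference of 0.82 ± 0.20 (SE, edgeR adjusted p = 0.0114). Its 3 neurites libraries were all above the 3 somas libraries, an order that was not counted over all tested genes. *Hsp90ab1* was called without the third MG132 somas library (1.02 ± 0.23, edgeR adjusted p = 0.00829). Over all alternative fits, other scalings among them, its log2 difference ran from 0.01 to 1.02. With the replicate block 3 members were called in MG132 cultures: *Cdc37* at 1.05 ± 0.19 (edgeR adjusted p = 2.08e-04), *Hsp90ab1* at 0.83 ± 0.14 (edgeR adjusted p = 8.82e-05) and *Fkbp5* at 0.97 ± 0.27 (edgeR adjusted p = 0.00895). *Hsp90aa1* had 0.52 ± 0.19 without the block (edgeR adjusted p = 0.0751) and 0.53 ± 0.14 with it (edgeR adjusted p = 0.00604), which is under 1.7-fold. With TMM scaling, *Stip1* was the only member with a negative log2 difference in both kinds of culture, -0.24 ± 0.19 in Ctrl and -0.14 ± 0.19 in MG132 (edgeR adjusted p = 0.453 and 0.671), and the latter was 0.06 without the third MG132 somas library.

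These fraction values rest on the scaling more than the MG132 values do. TMM put the median log2 difference of all tested genes at -0.04 in Ctrl and -0.08 in MG132 cultures, and scaling to total counts put it at -0.70 and -0.86. Of the genes called between fractions in Ctrl cultures, 82.8% were higher in neurites with TMM and 16.0% on total counts, and in MG132 cultures 76.9% and 6.12%. On total counts *Cdc37* was at 0.25 in MG132 cultures and *Hsp90aa1* at -0.30 in Ctrl and -0.28 in MG132 cultures, values that are above that shifted median. *Hsp90ab1*, *Ahsa1* and *Fkbp4* also turned negative on total counts in Ctrl cultures, and *Ptges3*, *Ahsa1*, *Ahsa2*, *Fkbp4* and *Ppid* in MG132 cultures. Mitochondrially encoded genes took 9.78 to 17.1% of the counts in somas and 13.5 to 29.2% in neurites. The summed astrocyte markers given above, though not each of them, and the sum of 3 nuclear RNAs, at 5380 to 6619 CPM in Ctrl somas and 1714 to 3817 in Ctrl neurites, also differed with the fraction, and their part in the member values was not tested.

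**Figure D3:**
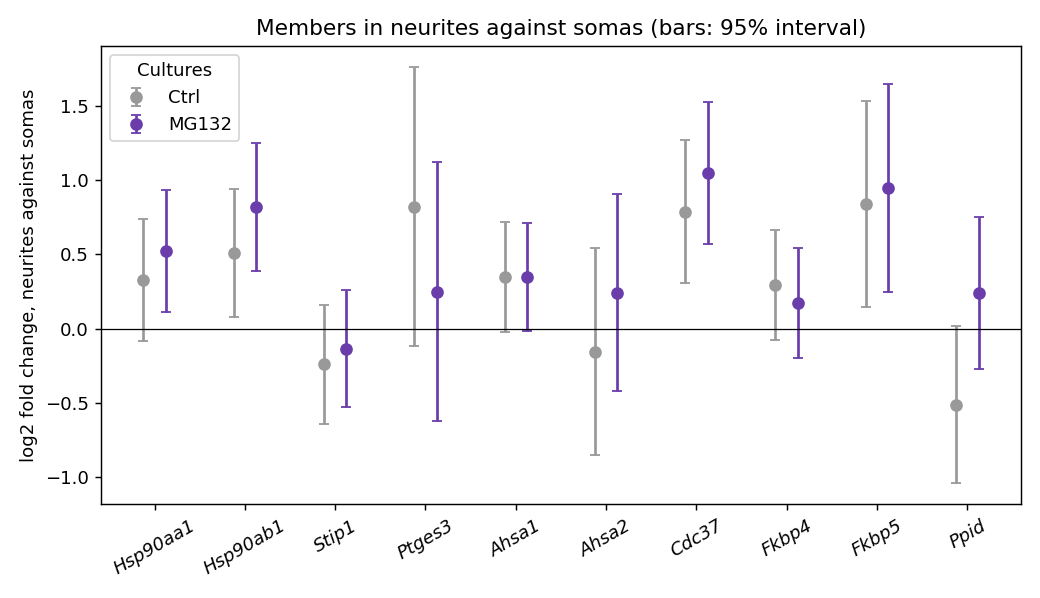
Log2 fold change of neurites against somas (vertical axis) for the 10 members in Ctrl cultures (grey) and MG132 cultures (violet), with 95% intervals from the edgeR fit. The interval of *Cdc37* in MG132 cultures runs from 0.57 to 1.53, and *Stip1* lies under 0 in both.

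Related members were also compared with each other inside each library, which does not depend on the scaling. The ratio of *Hsp90aa1* to *Hsp90ab1* counts was 0.21, 0.25 and 0.24 in Ctrl somas and 0.39, 0.43 and 0.43 in MG132 somas. In neurites it was 0.19, 0.27 and 0.17 in Ctrl and 0.33, 0.34 and 0.34 in MG132. The alpha transcript thus gained on the beta transcript in all 6 treated libraries, by a mean log2 difference of 0.83 in somas and 0.72 in neurites. Both had the smallest p that 3 against 3 libraries allow in an exact two-sided permutation test, 0.10, and 0.20 after adjustment over the 12 ratio comparisons, so no ratio could pass 0.05. In MG132 cultures the ratio was lower in neurites than in somas without overlap, by 0.29 on the log2 scale (exact permutation p = 0.10, adjusted p = 0.20).

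The count ratio of *Fkbp4* to *Fkbp5* was 1.47, 1.46 and 1.61 in Ctrl somas and 3.05, 4.17 and 2.89 in MG132 somas, a mean log2 difference of 1.14 without overlap (exact permutation p = 0.10, adjusted p = 0.20). In neurites it was 1.98, 1.43 and 0.53 in Ctrl and 1.83, 1.99 and 1.85 in MG132, which overlapped (exact permutation p = 0.30, adjusted p = 0.45). The mean log2 difference there was 0.72, and 0.16 without the third Ctrl library, the one with high *Fkbp5*. For *Ahsa1* to *Ahsa2* the groups overlapped in both fractions, with mean log2 differences of -0.08 in somas and -0.57 in neurites (exact permutation p = 0.90 and 0.20, adjusted p = 0.90 and 0.34).

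**Figure D4:**
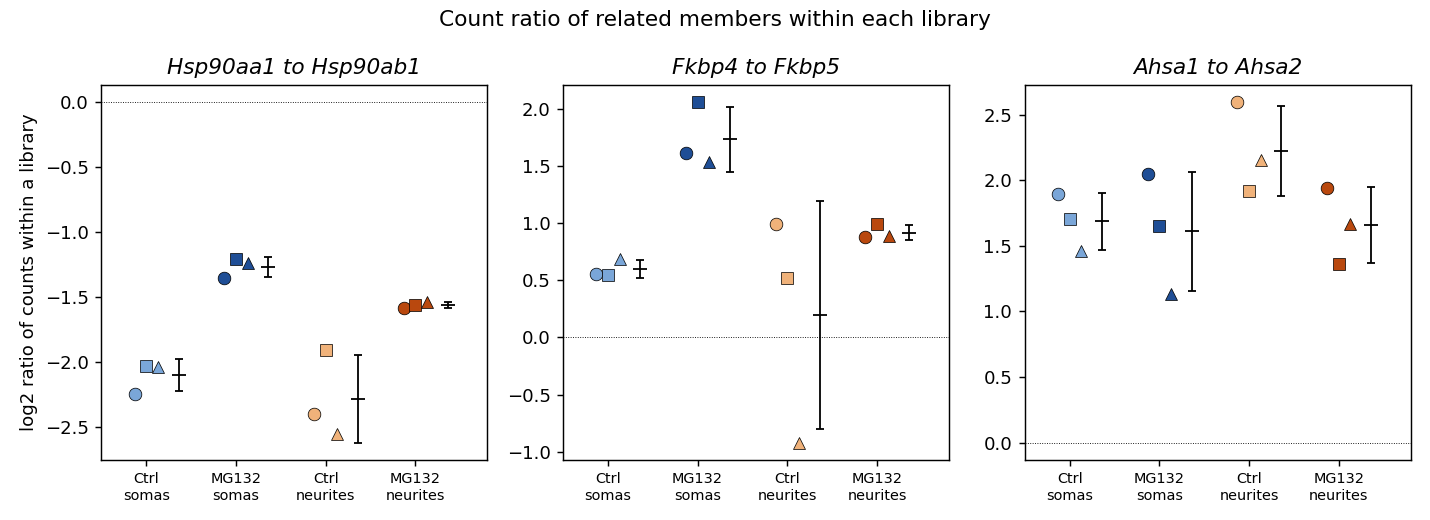
Log2 ratio of the counts of 2 related members in each library (vertical axis), by group; circles, squares and triangles are replicates 1, 2 and 3, bars are mean and SD (n = 3), and the dotted line marks equal counts. The ratio of *Hsp90aa1* to *Hsp90ab1* stays under 0 everywhere and is between -1.58 and -1.21 in the MG132 libraries.

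Levels of different members were compared per length, as CPM per kb of summed exons. They were not adjusted for shared windows, which made up 53.1% in *Hsp90aa1*, 0.736% in *Hsp90ab1*, 21.2% in *Ptges3* and 58.6% in *Ahsa2*. *Hsp90ab1* was the highest in each group, at 220 ± 19.2 in Ctrl somas, 622 ± 102 in MG132 somas, 313 ± 70.1 in Ctrl neurites and 1099 ± 129 in MG132 neurites (CPM per kb, SD, n = 3). *Hsp90aa1* came second in each group, from 39.0 ± 2.66 CPM per kb in Ctrl somas to 285 ± 37.7 in MG132 neurites. *Stip1* was next in each group, at 32.9 ± 5.16 CPM per kb in Ctrl somas, where its range overlapped that of *Hsp90aa1*, and at 115 ± 18.4 in MG132 somas, where it did not. *Ptges3* was the lowest in both Ctrl groups, at 0.89 ± 0.18 CPM per kb in somas and 1.58 ± 0.40 in neurites, and *Fkbp5* in both MG132 groups, at 1.61 ± 0.40 and 3.13 ± 0.31, although *Ptges3* was the lowest there too when CPM were divided by transcript length and, in MG132 neurites, by coding length.

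Between these ends the order was *Fkbp4*, *Ahsa1*, *Ppid*, *Cdc37*, *Ahsa2* and *Fkbp5* in Ctrl somas, where the ranges of the last pair overlapped. In MG132 somas it was *Ahsa1*, *Fkbp4*, *Ppid*, *Ahsa2*, *Cdc37* and *Ptges3*, and *Ahsa1* overlapped *Fkbp4*, as *Ahsa2* did *Ppid* and *Cdc37*. In MG132 neurites it was *Ahsa1*, *Fkbp4*, *Ppid*, *Cdc37*, *Ahsa2* and *Ptges3*, and *Cdc37* overlapped *Ahsa2* while *Ptges3* overlapped *Fkbp5*. In Ctrl neurites *Fkbp4* and *Ahsa1* were followed by *Cdc37*, *Fkbp5*, *Ppid*, *Ahsa2* and *Ptges3*, of which each overlapped the next. Places 3 to 9 in the Ctrl groups and 5 to 10 in the MG132 groups depend on the length used. *Stip1* was at place 4 by coding length in Ctrl somas, and in Ctrl neurites at place 4 by transcript length and place 5 by coding length, with *Ahsa1* ahead of it. *Cdc37* has 8194 bases of summed exons and a coding length of 1140 bases, and dividing by coding length moved it from place 6 to place 4 in Ctrl neurites. Places 1 and 2 were held under transcript length and coding length too.

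**Figure D5:**
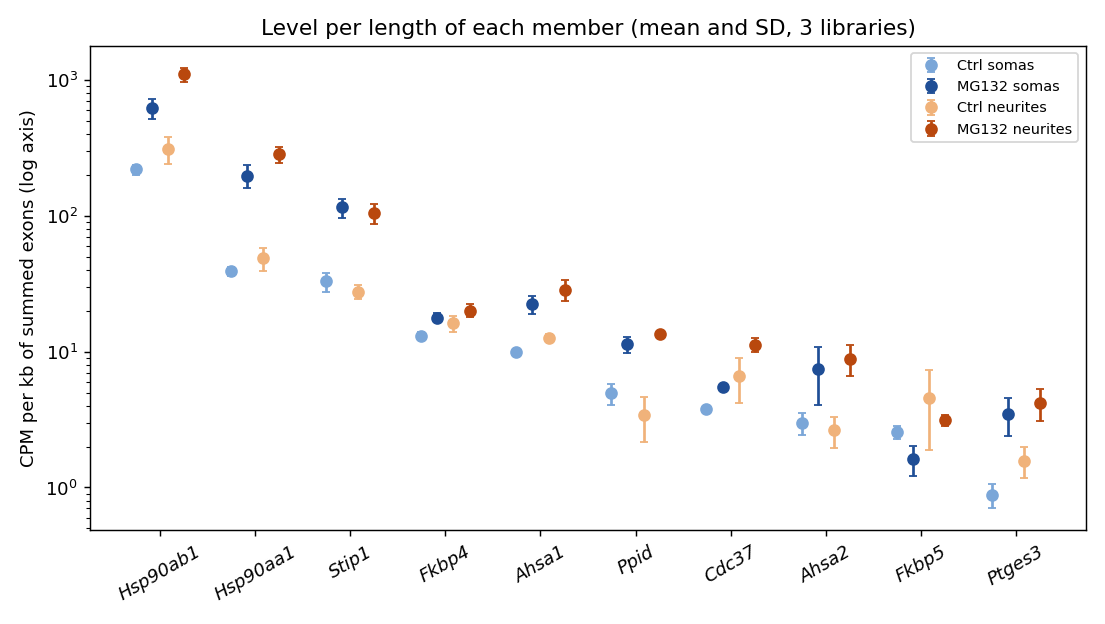
Level of each member as CPM per kb of summed exons (vertical log axis), in the 4 groups, as the mean with its SD (n = 3). Members are ordered by their level in Ctrl somas, from *Hsp90ab1* at 220 to *Ptges3* at 0.89.

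Across the 12 libraries the profiles of *Hsp90aa1*, *Hsp90ab1*, *Stip1*, *Ptges3*, *Ahsa1*, *Ahsa2* and *Ppid* ran together, with Pearson's r of 0.77 to 0.98 for log CPM, and *Fkbp5* had negative r with each of them, from -0.44 to -0.06. With the same genes *Fkbp4* had r of 0.611 to 0.855 and *Cdc37* 0.445 to 0.826, and *Cdc37* had 0.393 with *Fkbp5*. The genes that ran together are those called higher in somas, so their r is not separate evidence. All r are descriptions over 12 libraries that fall into 4 groups. Out of 8215 non-members averaging 10 CPM or more, those most like *Hsp90aa1* were *Rars* (arginyl-tRNA synthetase), *Ube2d3* (an E2 ubiquitin-conjugating enzyme), *Creb1* (a transcription factor), *Cct2* (a subunit of the cytosolic chaperonin) and *Hspd1* (the mitochondrial chaperonin HSP60), with r of 0.987 to 0.993. For *Hsp90ab1* they were *Ipo7*, *Hspa9*, *Cops2*, *Dhx15* and *Ypel5*, with r of 0.987 to 0.993. For *Fkbp5* they were *Fkbp8*, *Tomm6*, *Plaat3*, *Chd4* and *Crebrf*, with r of 0.919 to 0.932.

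Heat shock elements, the sites bound by heat shock factors, are built from units of GAA in alternating orientation. The 250 bases before a RefSeq transcript start (GRCm38.p6) were at hand for 7 members and were searched for GAANNTTC and TTCNNGAA. No window was at hand for *Hsp90aa1*, *Hsp90ab1* and *Ppid*, all called higher in both fractions, so these were not searched. For *Ahsa1* the window lies within, and for *Ahsa2* it reaches into, the gene interval given above. Each motif reads the same on both strands, so 1 pass covers both, and the 2 can overlap in a run of 3 units. Of 32851 windows of this length, 6.69% held the first, 7.17% the second, 12.8% either and 0.466% a run of 3 units. Among the 7 members, *Cdc37* held TTCNNGAA once, starting 170 bases before the start, and *Fkbp4* held GAANNTTC once, starting 151 bases before it. Neither was called with MG132 by the main rule. *Stip1*, *Ptges3*, *Ahsa1*, *Ahsa2* and *Fkbp5* held neither motif in this window, which says only that these letters are not there. The windows of *Cdc37* and *Fkbp4* are shown because they hold a motif, and that of *Stip1* as a member called higher in both fractions, each read 5′ to 3′ on the gene's strand, the minus strand, with the motif in capitals.
Cdc37 (chr9:21149935-21150184): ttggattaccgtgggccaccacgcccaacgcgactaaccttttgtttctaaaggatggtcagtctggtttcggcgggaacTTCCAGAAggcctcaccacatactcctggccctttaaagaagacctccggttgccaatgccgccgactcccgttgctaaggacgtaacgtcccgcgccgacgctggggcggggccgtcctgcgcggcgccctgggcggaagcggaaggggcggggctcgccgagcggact
Fkbp4 (chr6:128438657-128438906): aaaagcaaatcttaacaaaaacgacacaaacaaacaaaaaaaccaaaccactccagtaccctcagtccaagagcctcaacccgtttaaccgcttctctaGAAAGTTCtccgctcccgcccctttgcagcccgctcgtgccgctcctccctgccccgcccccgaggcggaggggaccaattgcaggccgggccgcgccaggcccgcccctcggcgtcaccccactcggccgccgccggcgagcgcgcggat
Stip1 (chr19:7040027-7040276): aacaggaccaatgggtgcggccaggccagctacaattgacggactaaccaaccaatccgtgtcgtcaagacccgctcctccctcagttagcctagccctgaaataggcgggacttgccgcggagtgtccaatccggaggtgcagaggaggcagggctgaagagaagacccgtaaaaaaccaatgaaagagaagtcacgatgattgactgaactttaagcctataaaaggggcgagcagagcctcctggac

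Other genes of the system were read from a list of 38 further HSP90 co-chaperones, organelle forms and regulators, of which 36 were tested. In somas 6 were called higher and 0 lower, and in neurites 8 higher and 0 lower (edgeR; background shares as above). The list had a median log2 change of 0.15 (somas) and 0.39 (neurites). Called in both fractions were *Chordc1*, an HSP90-binding protein, at 1.90 ± 0.20 in somas and 2.18 ± 0.20 in neurites (log2, SE), *Cacybp*, at 1.53 ± 0.18 and 2.08 ± 0.18, *Unc45a*, a myosin chaperone, at 1.66 ± 0.30 and 1.24 ± 0.31, and *Fnip1*, which slows the ATPase of HSP90, at 0.97 ± 0.18 and 1.41 ± 0.18. Its relative *Fnip2* was called in somas, at 1.33 ± 0.25. Between the fractions, 2 of the list were called lower in neurites of Ctrl cultures, *Ttc4* (-0.95 ± 0.21) and *Fnip1* (-0.85 ± 0.18), both named after their values were seen, against 1.28% of all tested genes. In MG132 cultures 4 were called higher in neurites, against 6.92% of all tested genes. With MG132 the organelle forms were not called: *Hsp90b1* of the endoplasmic reticulum had log2 differences of -0.07 ± 0.26 in somas and 0.62 ± 0.26 in neurites, and *Trap1* of mitochondria -0.28 ± 0.23 and -0.47 ± 0.23 (SE, edgeR adjusted p = 0.87, 0.0894, 0.389 and 0.149).

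Of 24 genes for known HSP90 clients, 21 were tested, and 2 were called higher with MG132 in somas, led by *Chuk* (an IκB kinase) at 1.32 ± 0.22 (log2, SE), where 9.00% of all tested genes were called higher. In neurites 4 were called higher and 3 lower, against 9.25% and 5.44% of all tested genes. *Hsf1*, the heat shock transcription factor, was higher by 1.69 ± 0.38, *Chuk* by 1.67 ± 0.23 and *Hif1a* by 1.02 ± 0.21, and *Mapt*, which encodes tau, fell by 1.10 on the log2 scale (SE 0.16). The other two lower clients, named after their values were seen, were *Akt1* (-0.92 ± 0.22) and *Nr3c1* (-0.89 ± 0.18), the gene of the glucocorticoid receptor. The clients had a median log2 change of 0.23 (somas) and 0.09 (neurites).

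*Fkbp5* is itself a textbook target of the glucocorticoid receptor, so 11 other targets were read beside it. With MG132, 2 were called higher and 1 lower in somas (all tested genes 9.00% and 5.58%), and 2 higher and 2 lower in neurites (9.25% and 5.44%), with a median log2 fold change of 0.08 and 0.05. *Dusp1* rose by 3.04 ± 0.57 in somas and 2.60 ± 0.58 in neurites, and *Errfi1* by 2.0 ± 0.27 and 2.37 ± 0.28 (log2, SE), both of them genes that other stress signals induce as well. *Fam107a* fell by 3.17 on the log2 scale in somas (SE 0.43), from 165 to 18.7 CPM. In neurites *Tsc22d3* fell by 1.98 (SE 0.30) and *Zbtb16* by 1.55 (SE 0.37) on the log2 scale. *Fam107a* is also expressed by astrocytes, whose markers fell with MG132 in somas as given above, and the part of those cells in its value was not tested.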

How the data were processed

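Libraries were made from polyA-selected RNA (KAPA Hyperprep). Per the labels and the methods, the authors trimmed reads with Trimmomatic 0.38.0, aligned them to mm10 with STAR and deposited raw counts per Entrez gene from featureCounts 2.0.1. Counting used default parameters, which ignore strand. Symbols and coordinates came from RefSeq and GENCODE (GRCm38), which named 93.0% of the 27179 genes.

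Counts were fitted with edgeR 4.0.16 (R 4.3.3; filterByExpr, TMM factors, quasi-likelihood test) in 1 model over the 12 libraries, with Benjamini-Hochberg adjustment over 14185 genes. Called means adjusted p under 0.01 and over 1.7-fold. CPM are TMM scaled. DESeq2 1.42.0 was an alternative, with other scalings, filters, leave-one-out fits and a replicate block. Count ratios (0.5 added to each count) were compared by exact permutation. All 10 members were named, with, of each list in each fraction's MG132 comparison, the 4 called genes with the largest change, *Hsp90b1* and *Trap1*, and the 5 genes most like 3 members by Pearson's r of log2 CPM. Members and lists were chosen with earlier results of these data known. A client gene counted in its list is not reported here by name.

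Same-numbered libraries deviated together from their group means: the correlation was 0.165 to 0.248 in each of the 3 pairs of all 4 comparisons, and 12 of 12 libraries correlated best with their own number, so the numbers were taken to pair the libraries. The main fit and the permutation tests did not use this pairing, and the fit with the replicate block did. Windows of 75 bases, the read length in the methods, were used to find sequence shared between transcripts. Intervals cover these libraries only.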

Additional observations from a re-analysis of the deposited data

How the results depend on the processing

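Of the 14 called member fold changes, none changed direction in 196 alternative fits, and 172 of these kept the call. Called members with MG132 in somas numbered 7, and 3 on total counts without TMM factors or with a log2 fold change beyond 1.7 required, and 4 to 7 when 1 library was left out. For neurites against somas in MG132 cultures the number was 1; it was 2 with DESeq2 size factors, with DESeq2, with no filter on low counts, with only the libraries compared or at an adjusted p under 0.05, 3 with the replicate block, 0 with either total count scaling or a log2 fold change beyond 1.7, and 0 to 1 with 1 library left out. In Ctrl cultures it was 0, 1 at an adjusted p under 0.05, and 0 to 1 with 1 library left out. The cause was not tested. The replicate block changed no call other than those given above; the paired fit called 1666 and 1668 genes higher in somas and neurites. The 84 alternatives for the count ratios moved none by more than 1 SD of the more variable group. Most of them left out 1 library, which cannot move a mean of 3 that far, so this does not show that the ratios were stable. The difference for *Fkbp4* to *Fkbp5* in neurites fell without the third Ctrl library, as given above.

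On total counts without TMM factors, where the median of all tested genes shifts as given above, neurites against somas turned to -0.30 (*Hsp90aa1*), -0.15 (*Hsp90ab1*), -0.31 (*Ahsa1*) and -0.39 (*Fkbp4*) in Ctrl cultures and to -0.28 (*Hsp90aa1*), -0.60 (*Ptges3*), -0.48 (*Ahsa1*), -0.54 (*Ahsa2*), -0.61 (*Fkbp4*) and -0.56 (*Ppid*) in MG132 cultures, and the difference of responses to -0.072 (*Stip1*), -0.16 (*Ahsa1*) and -0.060 (*Fkbp5*). With mitochondrial genes and the most abundant gene left out of the totals, the values were -0.13 (*Hsp90aa1*), -0.12 (*Ahsa1*) and -0.17 (*Fkbp4*) in Ctrl cultures and -0.18 (*Ptges3*), -0.089 (*Ahsa1*), -0.18 (*Ahsa2*), -0.26 (*Fkbp4*) and -0.19 (*Ppid*) in MG132 cultures. The difference of responses also changed sign for *Fkbp4* with no filter (0.0031) and for *Ahsa1* with at least 10 counts in every library (-0.0064). With 1 library left out it ran from -0.17 to 0.029 for *Fkbp4*, -0.10 to 0.18 for *Ahsa1* and -0.17 to 0.81 for *Fkbp5*. Neurites against somas ran from -0.22 to 0.057 for *Stip1* in MG132 cultures and from -0.35 to 0.028 for *Ahsa2* in Ctrl cultures, and MG132 against Ctrl in neurites from -0.82 to 0.15 for *Fkbp5*. None of these values was called.

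Depth limits *Ptges3*, with 14 to 228 counts a library, and shared sequence limits *Hsp90aa1*, *Ahsa2* and, less, *Ptges3*, *Ppid*, *Ahsa1* and *Stip1*.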
